A study of Mus musculus with 4 samples.

Results

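A set of 10 genes of fatty acid and lipid handling was followed through the main cell types of the mouse thoracic aorta: Cd36, Fabp4, Fabp5, Plin2, Plin4, Lpl, Apoe, Abca1, Abcg1 and Pltp. They were taken from the 17524 genes counted, and were picked by name for their roles, with results of these data already known. Cells were captured singly in droplets, where transcripts receive a molecular tag (UMI) near the 3′ end, so that copies of the same molecule count once. The design had 4 groups of 1 library each. KO AngII came from mice labelled Sting-KO, a whole-body knockout of the innate immune adaptor STING, infused with the pressor hormone angiotensin II (AngII) for 7 days and fed a high fat diet for 5 weeks. WT AngII came from wild-type mice with the same infusion and diet. KO saline and WT saline came from mice of either genotype given saline and a normal diet, so infusion and diet cannot be told apart, and AngII below stands for both. Each library pooled 3 mice. Periaortic fat had been removed, and live cells of the digest were sorted with the dye DAPI. The sources used here give no strain, age or sex.

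Kept cells numbered 8496 (KO AngII), 8475 (WT AngII), 12024 (KO saline) and 9242 (WT saline), and the median deposited cell had 9294 UMIs (KO AngII), 9938 (WT AngII), 6071 (KO saline) or 5888 (WT saline). Cells were assigned to gates by marker UMIs. Smooth muscle cells had at least 3 UMIs of Myh11, and there were 5660 (KO AngII), 5889 (WT AngII), 10350 (KO saline) and 7546 (WT saline). Fibroblasts had at least 10 UMIs of Dcn and Lum and at most 1 of Myh11, and there were 1879 (KO AngII), 1696 (WT AngII), 506 (KO saline) and 1021 (WT saline). Phagocytes, the macrophages and monocytes, had at least 10 UMIs of Lyz2, C1qa and C1qb and under 10 of Dcn and Lum, and there were 559 (KO AngII), 705 (WT AngII), 83 (KO saline) and 285 (WT saline). All 6 further markers of its own type had UMIs in each of these gates in every library, which does not show purity. Smooth muscle markers outnumbered phagocyte markers in the phagocyte gate of KO AngII, at 32077 against 25858 UMIs. The same held in KO saline (4130 against 2236) and WT saline (10349 against 8960), but not in WT AngII (37136 against 41857). The endothelial gate (at least 2 UMIs of Pecam1 and Cdh5) was not clean: 58 of 147 cells in KO AngII, 84 of 177 in WT AngII, 282 of 373 in KO saline and 1048 of 1267 in WT saline also passed the smooth muscle gate. Levels are therefore given for endothelial-only cells, which passed no other gate, and of which there were 45 (KO AngII), 26 (WT AngII), 62 (KO saline) and 133 (WT saline). Between 92 and 148 cell barcodes were shared by any pair of libraries. Tmem173, which encodes STING, was not depleted in the libraries labelled KO: fibroblasts had 12.5 CPM (UMIs per 1000000 UMIs of the gate) in KO AngII against 15.9 CPM in WT AngII, and 10.9 CPM in KO saline against 7.05 CPM in WT saline. Reads from the 3′ end cannot check a change elsewhere in that gene, and KO is used below as the name of the libraries so labelled.

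Levels are given in this unit. With 1 library per group there is no test and no replicate check, and the 95% intervals (exact Poisson for a level, exact conditional for a ratio, exact binomial for a share) cover counting error only. A member was compared between 2 libraries where at least 20 UMIs were expected in the library with the smaller gate total. Higher and lower with AngII, or in KO, mean at least 2-fold apart. Ratios at equal depth are from cells thinned to 3000 UMIs before gating, so that fewer cells passed a gate, by unequal shares. Fibroblasts then numbered 1164 (KO AngII), 1554 (WT AngII), 381 (KO saline) and 667 (WT saline). TMM scaling, which allows for differing makeup of the libraries, would add 0.11 to 0.31 to every log2 ratio of AngII over saline and 0.11 to KO over WT in AngII fibroblasts.

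Fatty acids enter cells from lipoproteins and from albumin. Lipoprotein lipase (Lpl) frees them from triglyceride, the scavenger receptor CD36 takes up long-chain fatty acids and oxidised lipoprotein, and the binding proteins encoded by Fabp4 and Fabp5 carry them inside the cell. Perilipin 2 and perilipin 4 coat the droplets in which the surplus is stored. Cholesterol leaves through the transporters ABCA1 and ABCG1 onto apolipoprotein E (Apoe) and high density lipoprotein, and phospholipid transfer protein (Pltp) remodels those particles. The nuclear receptors LXR and PPAR induce several of these genes, and in arteries macrophages that fill with lipid are known as foam cells.

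The members lie on 7 chromosomes of the mouse genome (GRCm38, GENCODE vM21, all protein coding). Fabp4 (chr3:10204088-10208576, minus strand) and Fabp5 (chr3:10012548-10016607, plus strand) share chromosome 3, and Plin2 and Abca1 share chromosome 4. The promoters of Cd36, Plin2 and Abca1, from 250 bases before to 50 bases after the RefSeq transcript start (GRCm38.p6), are shown because Cd36 and Plin2 were each other's nearest member in level over cell types and libraries, and Abca1 differed between KO and WT in more than 1 cell type. They cover chr5:17835847-17836146, chr4:86670010-86670309 and chr4:53159846-53160145, all on the minus strand. The Cd36 window lies at a transcript start inside the annotated gene (chr5:17781690-17888801), not at its end. Those of Plin2 and Abca1 lie at the ends of their genes. Capitals mark AGGTCA, the core that PPAR and LXR recognise as a repeat (here read on the other strand, as TGACCT), or the TATA box TATAAA.

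Cd36: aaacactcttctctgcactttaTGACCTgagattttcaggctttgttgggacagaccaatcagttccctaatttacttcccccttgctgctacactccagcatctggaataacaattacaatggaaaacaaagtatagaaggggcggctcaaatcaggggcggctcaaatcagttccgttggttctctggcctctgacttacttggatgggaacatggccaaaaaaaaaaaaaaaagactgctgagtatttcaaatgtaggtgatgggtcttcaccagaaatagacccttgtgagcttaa

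Plin2: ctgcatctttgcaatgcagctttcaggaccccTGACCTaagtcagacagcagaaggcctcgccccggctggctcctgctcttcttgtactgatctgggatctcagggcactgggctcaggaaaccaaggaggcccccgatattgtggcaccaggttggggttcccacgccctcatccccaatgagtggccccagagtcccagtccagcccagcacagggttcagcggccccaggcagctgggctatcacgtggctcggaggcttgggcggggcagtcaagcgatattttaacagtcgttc

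Abca1: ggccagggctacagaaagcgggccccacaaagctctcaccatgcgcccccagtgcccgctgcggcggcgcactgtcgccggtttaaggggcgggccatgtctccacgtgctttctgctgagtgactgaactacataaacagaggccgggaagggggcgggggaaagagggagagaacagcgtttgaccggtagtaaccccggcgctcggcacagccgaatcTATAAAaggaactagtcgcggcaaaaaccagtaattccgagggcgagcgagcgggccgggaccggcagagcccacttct

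The AGGTCA core began 228 bases before that internal start in Cd36 and 218 bases before the start in Plin2, and TATAAA began 29 bases before the start in Abca1. On either strand AGGTCA occurred in 16.3% and TATAAA in 13.6% of the 32851 mouse promoters of that length, and the matches are given as descriptions. The 6 members with a RefSeq promoter in the table used (Cd36, Plin2, Plin4, Apoe, Abca1 and Pltp, 8 promoters in all) were also searched on both strands for relaxed direct repeats, AGGNCA followed by itself after a spacer of 1 or of 4 bases. No match was found, and over all promoters 0.381% held the repeat with 1 base between and 0.253% that with 4. That says only that these letters are not in these windows.

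The members were spread over the cell types of the wall. Phagocytes held the highest level of Apoe, Pltp, Plin2 and Abca1 in all 4 libraries. In phagocytes Apoe reached 9946 CPM in KO AngII and 18312 CPM in WT AngII, against 12833 CPM in KO saline and 19997 CPM in WT saline. In fibroblasts it stood at 259 CPM in KO AngII and 714 CPM in WT AngII, against 2381 CPM in KO saline and 2097 CPM in WT saline, and in smooth muscle cells at 107 CPM in KO AngII and 204 CPM in WT AngII, against 179 CPM in KO saline and 233 CPM in WT saline. The order of these 3 cell types was the same in every library, but the gap between fibroblasts and phagocytes was much wider in the AngII libraries. Pltp followed the same order, with 594 CPM in KO AngII and 688 CPM in WT AngII, against 882 CPM in KO saline and 595 CPM in WT saline in phagocytes and no more than 15.0 CPM in any smooth muscle gate. Plin2 was between 200.1 and 414 CPM in phagocytes, and in smooth muscle cells and fibroblasts all 8 values lay between 17.3 and 27.5 CPM. Plin4 was the member of smooth muscle, with 44.8 CPM in KO AngII and 61.6 CPM in WT AngII, against 80.2 CPM in KO saline and 187 CPM in WT saline, and had its lowest levels in fibroblasts of the AngII libraries (1.38 CPM in KO and 2.68 CPM in WT). Fabp4 was highest in endothelial-only cells in every library, with 2882 CPM in KO AngII and 4368 CPM in WT AngII, against 499 CPM in KO saline and 809 CPM in WT saline.

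The other members had no fixed place. Cd36 was highest in endothelial-only cells of the AngII libraries and in phagocytes of the saline libraries. Fabp5 was highest in phagocytes of KO AngII, at 325 CPM, and in endothelial-only cells of the other 3 libraries. Lpl was lowest in smooth muscle in all 4 libraries, and its highest level lay in phagocytes of KO AngII and KO saline, in endothelial-only cells of WT AngII and in fibroblasts of WT saline. In WT AngII the endothelial-only and phagocyte levels of Lpl, 109.8 and 105 CPM, had overlapping intervals. Abcg1 stayed at or below 2.12 CPM in smooth muscle and fibroblasts, against 21.7 CPM (KO AngII), 48.5 CPM (WT AngII), 8.34 CPM (KO saline) and 21.6 CPM (WT saline) in phagocytes.

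**Figure D1:**
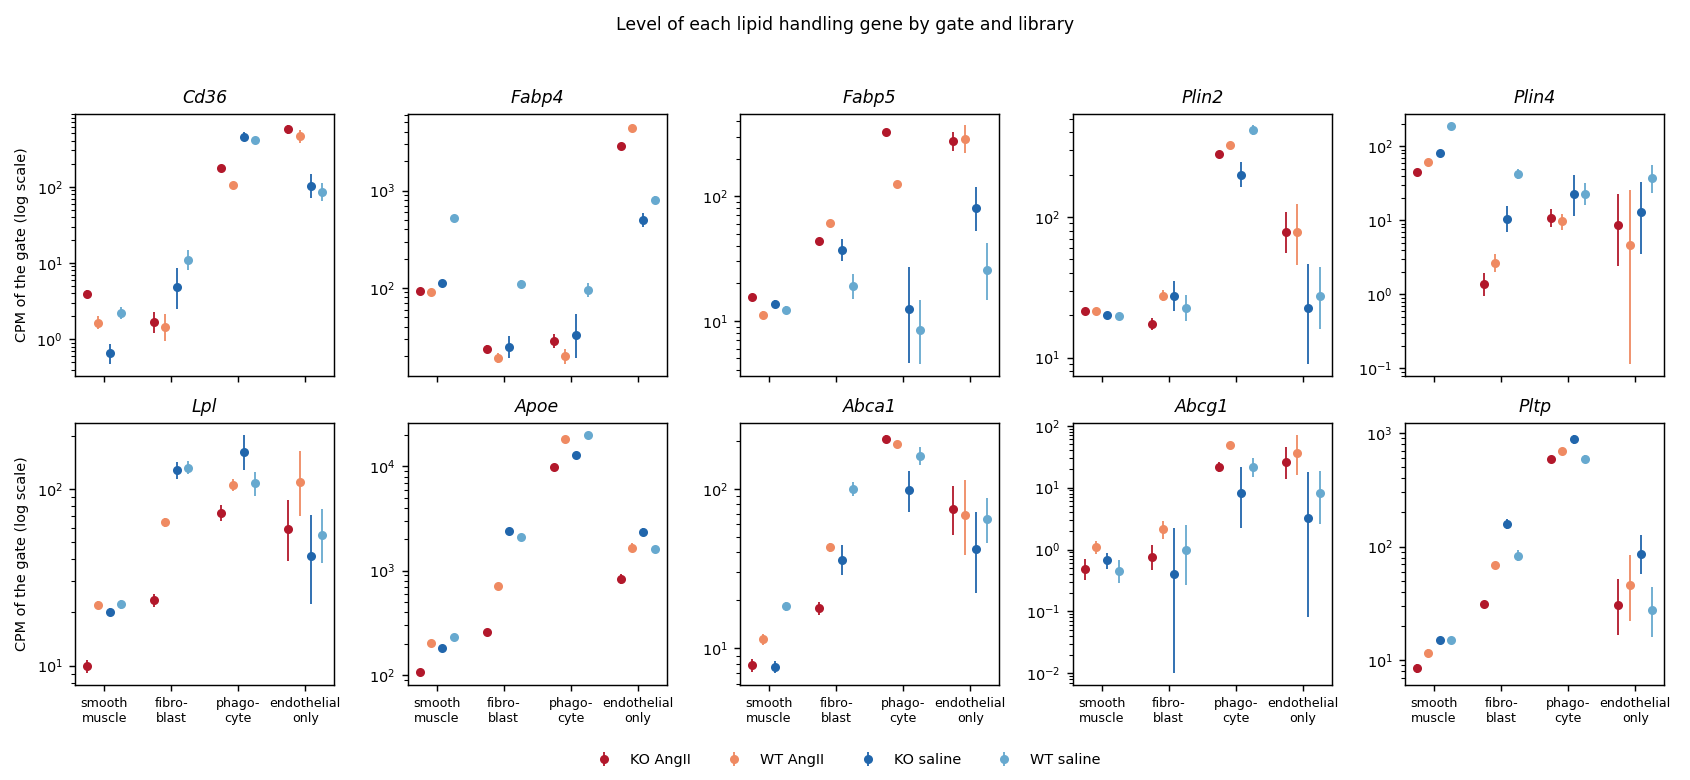
Level of each of the 10 genes (CPM of the gate, log axis) in smooth muscle, fibroblast, phagocyte and endothelial-only cells; points are single libraries and bars are exact Poisson 95% intervals. Apoe in fibroblasts stands at 259 CPM in KO AngII and 714 CPM in WT AngII, against 2381 CPM in KO saline and 2097 CPM in WT saline, and Fabp4 in smooth muscle is set apart in WT saline alone, at 523 CPM.

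In smooth muscle cells the fatty acid carrier Fabp4 and the droplet coat protein gene Plin4 were the members that differed most with AngII in WT. Fabp4 gave 5605 UMIs in KO AngII and 5912 in WT AngII, against 7984 in KO saline and 27652 in WT saline, which is 93.6 CPM in KO AngII and 91.5 CPM in WT AngII, against 113 CPM in KO saline and 523 CPM in WT saline. The WT saline library stood alone, and the other 3 lay close together. The log2 ratio of AngII over saline was accordingly -2.51 (-2.55 to -2.47) in WT and -0.28 (-0.33 to -0.23) in KO. For Plin4 it was -1.60 (-1.66 to -1.55) in WT and -0.84 (-0.91 to -0.77) in KO. WT saline was again the highest, but here KO saline at 80.2 CPM also lay above both AngII libraries.

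The difference was spread over the cells rather than held by a few. After each cell of the gate was thinned to 3000 UMIs, the share of smooth muscle cells with a Fabp4 UMI was 24.9% in KO AngII and 22.1% in WT AngII, against 27.0% in KO saline and 69.3% in WT saline. Without thinning, the shares were 48.4% in KO AngII and 48.3% in WT AngII, against 43.6% in KO saline and 85.8% in WT saline, at median depths of 8726 UMIs (KO AngII), 10298 (WT AngII), 6465.5 (KO saline) and 6405.5 (WT saline). Thinning left out 1181 shallower cells of KO saline and 223 of WT saline, and 0 of the AngII libraries. In WT saline 11.3% of the thinned cells had exactly 3 UMIs of Fabp4, against 1.12% in WT AngII. WT saline thus had more cells with several UMIs, not only more cells with any. The share of thinned smooth muscle cells with Plin4 was 13.9% in KO AngII and 16.9% in WT AngII, against 20.4% in KO saline and 41.5% in WT saline. Fibroblasts at the same 3000 UMIs had shares with Fabp4 of 5.00% in KO AngII and 3.48% in WT AngII, against 6.01% in KO saline and 15.0% in WT saline, and with Plin4 of 0.479% in KO AngII and 0.884% in WT AngII, against 3.60% in KO saline and 11.8% in WT saline. The shares in smooth muscle were above those in fibroblasts in every library for both genes.

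**Figure D2:**
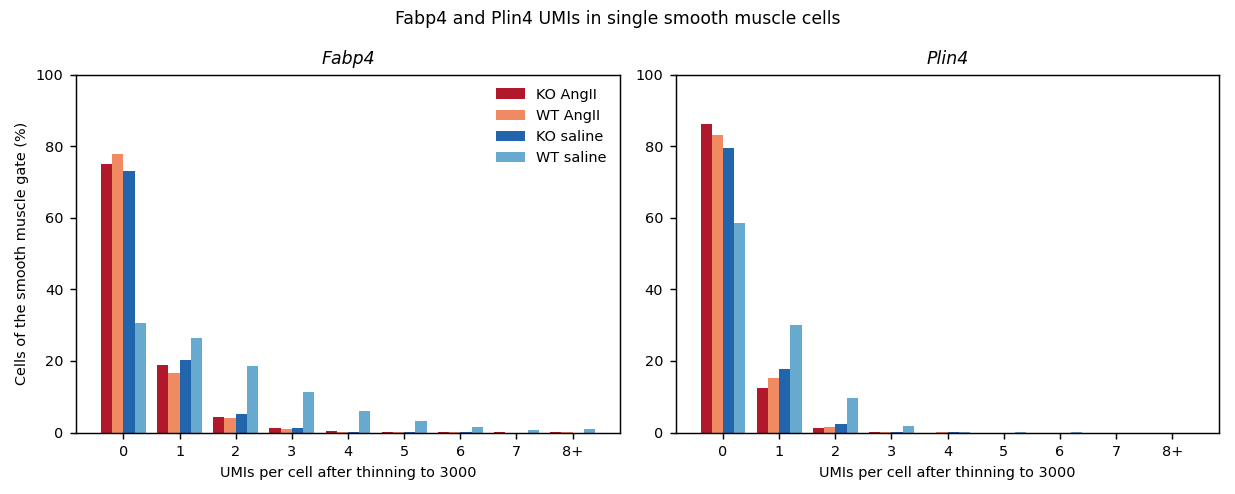
Percent of smooth muscle cells (vertical axis) with 0, 1, 2 and more UMIs of Fabp4 or Plin4 (horizontal axis) after thinning each cell to 3000 UMIs, 1 bar per library. In WT saline 30.7% of cells have no Fabp4 UMI, against 77.9% in WT AngII, and in KO the shares are 75.1% in KO AngII and 73.0% in KO saline.

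Markers of other cells known for Fabp4 were low in this gate. The 6 adipocyte markers in the table, Adipoq, Plin1 and Cidec among them, summed to 6 UMIs in KO AngII and 12 in WT AngII, against 11 in KO saline and 23 in WT saline over the whole smooth muscle gate, highest in the library where Fabp4 was highest. The endothelial markers summed to 8.57 CPM in KO AngII and 5.19 CPM in WT AngII, against 6.11 CPM in KO saline and 4.29 CPM in WT saline in that gate. Cells of the gate that also passed the endothelial gate, set by Pecam1 and Cdh5, went the other way. They were 58 of 5660 (KO AngII), 84 of 5889 (WT AngII), 282 of 10350 (KO saline) and 1048 of 7546 (WT saline), most in the library where Fabp4 was highest. The part of either cell type in the level of Fabp4 was not tested. Without cells that passed more than 1 gate, the WT log2 ratio was -2.51 for Fabp4 and -1.60 for Plin4.

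Among the other members in smooth muscle, the fatty acid uptake receptor gene Cd36 was higher with AngII in KO only, at low counts. It gave 235 UMIs in KO AngII and 107 in WT AngII, against 46 in KO saline and 118 in WT saline, and the log2 ratios were 2.59 (2.12 to 3.07) in KO and -0.43 (-0.82 to -0.04) in WT. Few cells of the gate carried these UMIs, a share of 1.45% in KO AngII and 0.9% in WT AngII, against 0.357% in KO saline and 0.928% in WT saline. The 6 phagocyte markers summed to 44.4 CPM in KO AngII and 60.9 CPM in WT AngII, against 7.26 CPM in KO saline and 21.1 CPM in WT saline in the smooth muscle gate, and 82 (KO AngII), 85 (WT AngII), 18 (KO saline) and 34 cells (WT saline) passed both gates. Without cells of more than 1 gate, Cd36 stood at 1.24 CPM in KO AngII and 0.45 CPM in WT AngII, against 0.457 CPM in KO saline and 0.971 CPM in WT saline, and its log2 ratio was 1.44 in KO and -1.11 in WT. The WT ratio was thus past 2-fold only without those cells, and the KO ratio was past it with and without them.

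Apoe was lower in both genotypes, and Pltp in KO, only once those cells were left out. Over the whole smooth muscle gate the log2 ratio of Apoe was -0.74 in KO and -0.20 in WT. Without cells of more than 1 gate the level was 51.6 CPM in KO AngII and 76.6 CPM in WT AngII, against 173 CPM in KO saline and 190.3 CPM in WT saline, so that the ratio became -1.75 in KO and -1.31 in WT. Pltp had ratios of -0.82 in KO and -0.36 in WT, and -1.35 in KO and -0.91 in WT without those cells. Lpl was lower with AngII in KO, at 9.89 CPM in KO AngII against 20.2 CPM in KO saline, and nearly level in WT, at 22.0 CPM in WT AngII against 22.3 CPM in WT saline. The KO ratio of -1.03 (-1.17 to -0.89) lay at the edge of 2-fold and was -0.88 with TMM scaling and -0.52 at equal depth. The cholesterol exporter gene Abcg1 had only 71 UMIs in WT AngII against 24 in WT saline, a ratio of 1.28 (0.59 to 2.01) that was 0.65 without cells of more than 1 gate. Abca1 had 7.85 CPM in KO AngII and 11.4 CPM in WT AngII, against 7.66 CPM in KO saline and 18.3 CPM in WT saline. Fabp5 and Plin2 were the steadiest members here, with Fabp5 between 11.1 and 15.4 CPM and Plin2 between 19.6 and 21.4 CPM in the 4 libraries.

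In all, 1 of 10 members (Cd36) was higher and 1 (Lpl) lower with AngII in KO smooth muscle, where 6.69% of the 12961 genes compared were higher and 6.47% lower. Without cells of more than 1 gate these were 1 and 3 in KO, and at equal depth 0 and 0, Cd36 then having too few UMIs. Over all genes those settings gave 731 higher and 863 lower of 12802, and 198 and 335 of 10785. In WT, 1 member (Abcg1) was higher and 2 (Fabp4 and Plin4) were lower, where 7.24% of 12826 genes were higher and 5.6% lower. Without cells of more than 1 gate, 0 were higher and 4 (Fabp4, Plin4, Apoe and Cd36) lower in WT, and at equal depth 0 and 2. Over all genes those settings gave 789 higher and 678 lower of 12492, and 403 and 516 of 10865. The median log2 ratio of the members was -0.37 in KO and -0.28 in WT, beside -0.17 in KO and -0.11 in WT over all genes compared.

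In fibroblasts Apoe, Abca1 and Lpl, which serve cholesterol export and lipolysis, were lower with AngII in both genotypes, and at equal depth Apoe alone of the 3 was. Apoe gave 6381 UMIs in KO AngII and 12773 in WT AngII, against 5893 in KO saline and 8630 in WT saline. Its log2 ratio was -3.20 (-3.25 to -3.15) in KO and -1.55 (-1.59 to -1.51) in WT, and the levels of both AngII libraries lay below those of both saline libraries. Lpl had the same order, with 23.4 CPM in KO AngII and 64.9 CPM in WT AngII, against 128 CPM in KO saline and 132 CPM in WT saline, and ratios of -2.45 (-2.65 to -2.25) in KO and -1.02 (-1.17 to -0.87) in WT. The WT ratio of Lpl was -0.85 with TMM scaling and -0.76 at equal depth.

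Abca1, which loads cholesterol onto apolipoproteins, had 17.9 CPM in KO AngII and 42.9 CPM in WT AngII, against 36.0 CPM in KO saline and 99.9 CPM in WT saline. WT AngII thus lay above KO saline, although each AngII library lay below the saline library of its genotype. The ratios were -1.01 (-1.34 to -0.66) in KO and -1.22 (-1.39 to -1.04) in WT, and at equal depth they were -0.26 and -0.90, both within 2-fold. With TMM scaling the KO ratio was -0.70. Pltp was lower with AngII in KO, at 31.1 CPM in KO AngII against 158 CPM in KO saline, and within 2-fold in WT, at 69.4 CPM in WT AngII against 83.4 CPM in WT saline. Its ratios were -2.34 (-2.52 to -2.16) in KO and -0.26 (-0.44 to -0.09) in WT, and the difference between genotypes was not tested.

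Fabp5 went the other way in WT fibroblasts, with 60.5 CPM in WT AngII against 19.0 CPM in WT saline and a ratio of 1.67 (1.34 to 2.02). In KO it had 43.9 CPM in KO AngII against 37.2 CPM in KO saline and a ratio of 0.24 (-0.07 to 0.56). WT saline was the lowest of the 4 libraries. Plin2 stayed within 2-fold, with ratios of -0.66 in KO and 0.28 in WT. Cd36 gave between 12 and 45 UMIs and Abcg1 between 1 and 38 UMIs in this gate, too few to compare with AngII.

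Fabp4 and Plin4 in fibroblasts repeated the order they had in smooth muscle. Fabp4 stood at 23.8 CPM in KO AngII and 19.2 CPM in WT AngII, against 25.1 CPM in KO saline and 111 CPM in WT saline. Relative to the smooth muscle gate of the same library this is 25.4% in KO AngII and 21.0% in WT AngII, against 22.1% in KO saline and 21.2% in WT saline, while the 6 smooth muscle markers stood at 6.43% in KO AngII and 3.82% in WT AngII, against 12.5% in KO saline and 4.10% in WT saline. The WT ratio of Fabp4 was -2.53 (-2.73 to -2.32), and the part of smooth muscle RNA in it was not tested. Plin4 had 1.38 CPM in KO AngII and 2.68 CPM in WT AngII, against 10.5 CPM in KO saline and 42.5 CPM in WT saline, with a WT ratio of -3.99 (-4.48 to -3.52).

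Of the members compared in fibroblasts, 0 of 7 were higher and 4 lower with AngII in KO, where 7.02% of 7847 genes were higher and 8.79% lower. In WT, 1 of 8 was higher and 5 were lower, where 6.62% of 9607 genes were higher and 6.87% lower. Apoe, Lpl and Abca1 were lower in both genotypes, 3 of the 7 members that could be compared in both, beside 240 of 7825 genes. At equal depth 0 were higher and 3 lower in KO, and 1 was higher and 3 lower in WT. Over all genes 334 were then higher and 357 lower of 5700 in KO, and 451 and 455 of 7602 in WT. The median log2 ratio of the members was -1.01 in KO and -1.12 in WT, beside -0.12 in KO and -0.11 in WT over all genes compared.

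**Figure D3:**
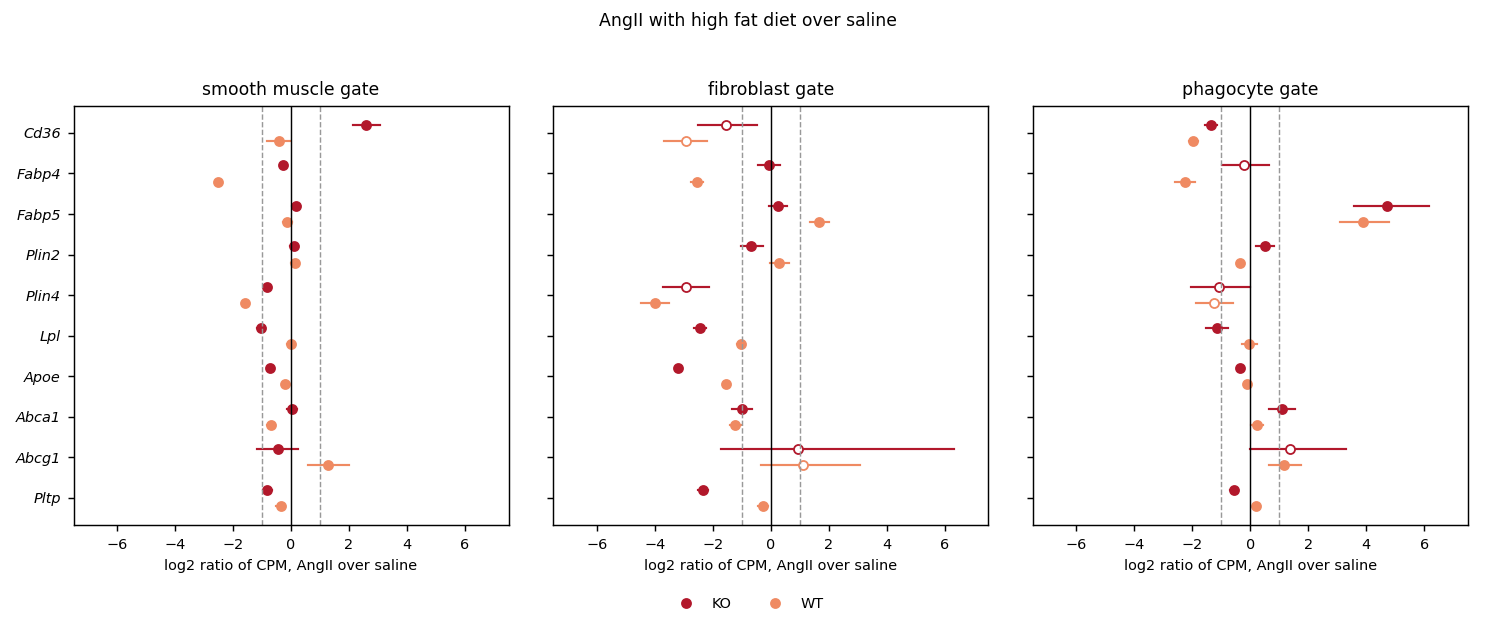
Log2 ratio of CPM, AngII over saline, of the 10 genes in smooth muscle, fibroblast and phagocyte gates, KO above WT for each gene; bars are exact conditional 95% intervals, dashed lines mark 2-fold and open points had too few UMIs to be compared. Fabp5 in phagocytes lies farthest to the right (4.70 in KO and 3.87 in WT), and Apoe in fibroblasts stands at -3.20 in KO and -1.55 in WT.

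The makeup of the fibroblasts differed between libraries. Cells with at least 1 UMI of Cthrc1, a collagen matrix gene of activated fibroblasts, were 1540 cells (82.0%) in KO AngII and 1355 cells (79.9%) in WT AngII, against 27 cells (5.34%) in KO saline and 64 cells (6.27%) in WT saline. Cells with exactly 1 Cthrc1 UMI numbered 138 (KO AngII), 140 (WT AngII), 19 (KO saline) and 44 (WT saline). The cut was not adjusted for depth, and a deeper cell reaches 1 UMI more readily. Median depths of the gate were 11779 UMIs (KO AngII), 9153.5 (WT AngII), 3874.5 (KO saline) and 3608 (WT saline), so the parts are not fully alike between treatments. Within cells without a Cthrc1 UMI, Apoe was still lower with AngII, with 818 CPM in KO AngII and 1044 CPM in WT AngII, against 2562 CPM in KO saline and 2196 CPM in WT saline. The ratio there was -1.65 (-1.72 to -1.58) in KO and -1.07 (-1.13 to -1.01) in WT, smaller than over the whole gate. Lpl in the same cells had a ratio of -1.53 (-1.84 to -1.22) in KO and -0.45 (-0.67 to -0.23) in WT, and Pltp one of -1.42 (-1.70 to -1.15) in KO and 0.07 (-0.18 to 0.31) in WT. Abca1 stood at -0.23 (-0.69 to 0.24) in KO and -1.05 (-1.35 to -0.76) in WT.

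Within cells with Cthrc1, few of which came from the saline libraries, Apoe had 190.1 CPM in KO AngII and 651 CPM in WT AngII, against 556 CPM in KO saline and 1027 CPM in WT saline. KO AngII was lowest here as over the whole gate, but WT saline rather than KO saline was highest. The ratio was -1.55 (-1.81 to -1.28) in KO and -0.66 (-0.81 to -0.50) in WT. Of the 10 members, Fabp5 alone was higher in cells with Cthrc1 than without in both AngII libraries. It had 46.4 CPM with and 23.7 CPM without Cthrc1 in KO AngII, and 65.9 CPM with and 31.9 CPM without in WT AngII.

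In phagocytes a carrier and an uptake receptor of fatty acids differed in opposite directions: Fabp5 was higher and Cd36 lower with AngII in both genotypes. Fabp5, an inducible carrier of macrophages and of epidermis, gave 1575 UMIs in KO AngII and 800 in WT AngII, against 6 in KO saline and 13 in WT saline. In CPM that is 325 CPM in KO AngII and 124 CPM in WT AngII, against 12.5 CPM in KO saline and 8.52 CPM in WT saline, and the log2 ratio was 4.70 (3.58 to 6.15) in KO and 3.87 (3.09 to 4.78) in WT. The AngII levels lay far above the saline levels, whose counts were small. At equal depth the share of phagocytes with a Fabp5 UMI was 22.2% in KO AngII and 16.9% in WT AngII, against 2.82% in KO saline and 1.56% in WT saline. In smooth muscle cells at the same depth it was 3.85% in KO AngII and 2.51% in WT AngII, against 4.14% in KO saline and 3.48% in WT saline. The saline shares of phagocytes were below those of smooth muscle cells. The part of RNA from other cells in the phagocyte shares was not tested. Before thinning the phagocyte gate had median depths of 7596 UMIs (KO AngII), 7905 (WT AngII), 5113 (KO saline) and 4678 (WT saline), and its shares were 31.5% in KO AngII and 28.8% in WT AngII, against 3.61% in KO saline and 1.75% in WT saline.

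Cd36 gave 860 UMIs in KO AngII and 668 in WT AngII, against 218 in KO saline and 621 in WT saline. The levels were 178 CPM in KO AngII and 104 CPM in WT AngII, against 454 CPM in KO saline and 407 CPM in WT saline, with no overlap between AngII and saline libraries. Its ratio was -1.36 (-1.57 to -1.13) in KO and -1.97 (-2.13 to -1.81) in WT. At equal depth the share of phagocytes with a Cd36 UMI was 33.3% in KO AngII and 19.6% in WT AngII, against 66.2% in KO saline and 66.9% in WT saline, and that of smooth muscle cells was at most 0.777% in any library. Unthinned, the phagocyte shares were 51.2% in KO AngII and 33.0% in WT AngII, against 67.5% in KO saline and 79.3% in WT saline.

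Of the cholesterol exporters, Abcg1 was higher with AngII in WT phagocytes, with 48.5 CPM in WT AngII against 21.6 CPM in WT saline and a ratio of 1.17 (0.65 to 1.73), which was 0.69 at equal depth. In KO it gave 105 UMIs in KO AngII against 4 in KO saline, too few to compare. Abca1 was higher in KO, at 206 CPM in KO AngII against 98.0 CPM in KO saline with a ratio of 1.07 (0.65 to 1.53), and within 2-fold in WT, with 0.23 (0.04 to 0.44). At equal depth the KO ratio was 0.88, within 2-fold. Apoe stayed within 2-fold, at -0.37 in KO and -0.13 in WT. Pltp was -0.57 in KO and 0.21 in WT.

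The droplet coat gene Plin2 had 281 CPM in KO AngII and 325 CPM in WT AngII, against 200.1 CPM in KO saline and 414 CPM in WT saline in phagocytes, and its ratios of 0.49 (0.19 to 0.81) in KO and -0.35 (-0.48 to -0.22) in WT were within 2-fold. Lpl had 72.9 CPM in KO AngII and 105 CPM in WT AngII, against 163 CPM in KO saline and 107 CPM in WT saline, and was lower with AngII in KO, with -1.16 (-1.51 to -0.78), but -0.94 at equal depth. Plin4 gave at most 62 UMIs in a phagocyte gate and could not be compared with AngII. Fabp4 had a WT ratio of -2.26 (-2.62 to -1.91), and without cells of more than 1 gate it was -1.51, at 23.0 CPM in KO AngII and 9.58 CPM in WT AngII, against 10.6 CPM in KO saline and 27.3 CPM in WT saline. KO AngII then lay above KO saline. As a share of the smooth muscle level it was 30.7% in KO AngII and 21.9% in WT AngII, against 29.4% in KO saline and 18.4% in WT saline. The smooth muscle markers stood at 16.5% in KO AngII and 15.3% in WT AngII, against 18.1% in KO saline and 15.5% in WT saline of theirs. Without cells of more than 1 gate these markers were at 2.81% in KO AngII and 1.87% in WT AngII, against 7.71% in KO saline and 2.69% in WT saline, and Fabp4 at 25.0% in KO AngII and 10.6% in WT AngII, against 9.38% in KO saline and 5.30% in WT saline. The part of smooth muscle RNA in the phagocyte value of Fabp4 was not tested.

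Of the members compared in phagocytes, 2 of 7 (Fabp5 and Abca1) were higher and 2 (Cd36 and Lpl) lower with AngII in KO, where 4.93% of 2921 genes were higher and 2.74% lower. At equal depth 1 was higher and 1 lower in KO, beside 88 higher and 54 lower of 1403 genes. In WT, 2 of 9 (Fabp5 and Abcg1) were higher and 2 (Cd36 and Fabp4) lower, where 5.41% of 6429 genes were higher and 3.76% lower. Of the 7 members compared in both genotypes, Fabp5 was higher and Cd36 lower in both, beside 65 genes higher and 31 lower in both of 2921. The members' median was -0.37 in KO and -0.03 in WT, beside 0.06 in KO and -0.04 in WT over all genes compared.

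The makeup of the phagocytes also differed between libraries. Cells with at least 3 UMIs of Lyve1, Folr2, Cd163 and F13a1, genes of macrophages resident in the vessel wall, were 425 cells (76.0%) in KO AngII and 425 cells (60.3%) in WT AngII, against 63 cells (75.9%) in KO saline and 274 cells (96.1%) in WT saline. From 2 to 23 cells per library had exactly 3 such UMIs, and from 2 to 32 had 1 UMI fewer. Within these resident-marked cells, Fabp5 had 195 CPM in KO AngII and 134 CPM in WT AngII, against 13.7 CPM in KO saline and 6.20 CPM in WT saline, and a ratio of 3.83 (2.60 to 5.46) in KO and 4.43 (3.50 to 5.57) in WT. Cd36 had 213 CPM in KO AngII and 154 CPM in WT AngII, against 561 CPM in KO saline and 416 CPM in WT saline there, with ratios of -1.40 (-1.62 to -1.17) in KO and -1.44 (-1.61 to -1.27) in WT. Both differences were thus also present inside the resident-marked cells.

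In cells with fewer resident UMIs, Fabp5 was 712 CPM in KO AngII against 112 CPM in WT AngII, a ratio of KO over WT of 2.67 (2.48 to 2.86). Only 1 Fabp5 UMI was counted in such cells of KO saline and 4 in WT saline. Cd36 was lower in this part than among resident-marked cells in every library, at 72.8 CPM in KO AngII and 39.0 CPM in WT AngII, against 114 CPM in KO saline and 224 CPM in WT saline. Apoe and Pltp were likewise higher among resident-marked cells in every library, although WT saline held only 11 and KO saline only 20 other phagocytes. Apoe there had 10121 CPM in KO AngII and 24192 CPM in WT AngII, against 14836 CPM in KO saline and 20802 CPM in WT saline, and in the other part 9426 CPM in KO AngII and 10661 CPM in WT AngII, against 6445 CPM in KO saline and 4569 CPM in WT saline. Lpl ran the other way in the AngII libraries, with 44.5 CPM in resident-marked and 157 CPM in other phagocytes of KO AngII, and 64.6 CPM in resident-marked and 158 CPM in other phagocytes of WT AngII.

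**Figure D4:**
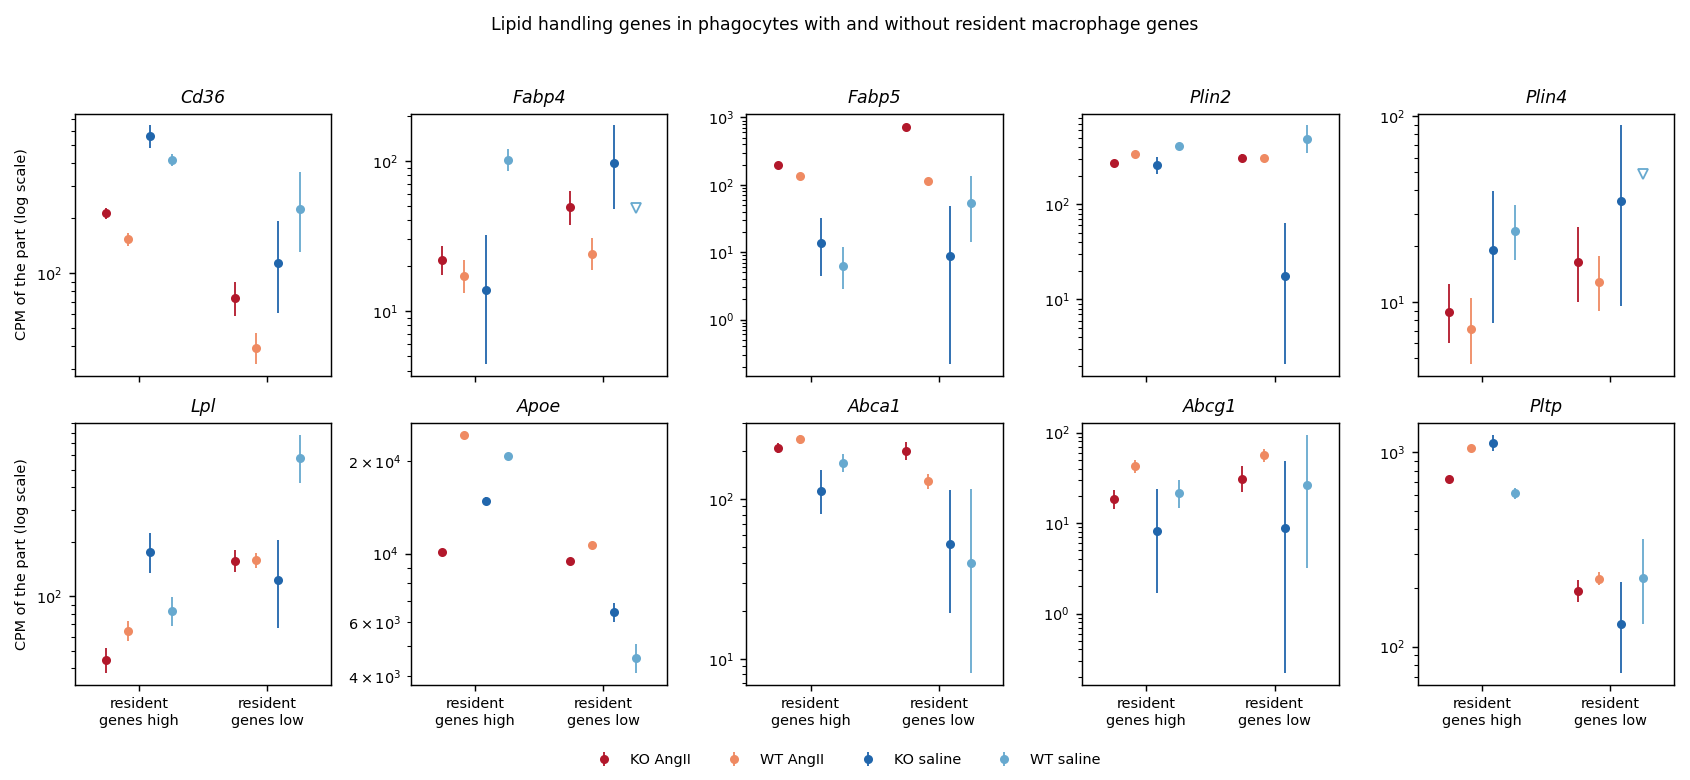
Level of the 10 genes (CPM of the part, log axis) in phagocytes with at least 3 UMIs of 4 resident macrophage genes (left in each panel) and with fewer (right), 1 point per library with exact Poisson 95% intervals; a triangle marks an upper limit where no UMI was counted. Fabp5 in the right part of KO AngII reaches 712 CPM, and Apoe in the left part of WT AngII 24192 CPM.

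KO and WT libraries were then compared within a treatment. Under AngII, the cholesterol export genes Apoe, Abca1, Abcg1 and Pltp and the lipase gene Lpl were lower in KO than in WT fibroblasts. Apoe stood at 259 CPM in KO AngII against 714 CPM in WT AngII, a log2 ratio of -1.46 (-1.51 to -1.42). The ratio was -1.47 (-1.62 to -1.33) for Lpl and -1.26 (-1.43 to -1.09) for Abca1. It was -1.16 (-1.29 to -1.03) for Pltp, and -1.46 (-2.34 to -0.63) for Abcg1, which had 19 UMIs in KO and 38 in WT. Fibroblasts had median depths of 11779 UMIs in KO AngII and 9153.5 in WT AngII. At equal depth the ratio was -0.92 for Lpl, -0.86 for Apoe and -0.53 for Pltp. These 3 kept their direction but lay within 2-fold. Abcg1 had too few UMIs, and 1 member (Abca1) was past 2-fold in place of 5. Over all genes 141 were then higher and 213 lower of 9036.

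Within fibroblasts with Cthrc1, Apoe stood at 190.1 CPM in KO AngII against 651 CPM in WT AngII, a ratio of -1.78 (-1.83 to -1.72). In those without, it stood at 818 CPM in KO AngII against 1044 CPM in WT AngII, with -0.35 (-0.43 to -0.27). Counted over all members, 0 of 10 were higher and 5 lower in KO AngII fibroblasts, where 1.98% of 11794 genes were higher and 5.8% lower. The members' median was -1.06, beside -0.09 over all genes compared.

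In phagocytes under AngII, Fabp5 was higher in KO, at 325 CPM in KO AngII against 124 CPM in WT AngII and a ratio of 1.39 (1.26 to 1.51). The ratio was 0.54 (0.37 to 0.71), within 2-fold, in resident-marked cells and 2.67 (2.48 to 2.86) in the others. Abcg1 was lower, at 21.7 CPM in KO AngII against 48.5 CPM in WT AngII and a ratio of -1.16 (-1.49 to -0.84), which was -0.95 at equal depth. The ratio of Apoe was -0.88 (-0.90 to -0.87), just short of 2-fold, and it was -1.26 (-1.27 to -1.24) in resident-marked cells. These 2 calls among 10 members compare with 0.763% of 9442 genes higher and 2.34% lower. In smooth muscle under AngII, Cd36 was higher in KO, with 1.24 (0.91 to 1.59), and 2 members were lower, Lpl with -1.16 (-1.30 to -1.02) and Abcg1 with -1.18 (-1.86 to -0.54). Here 2.28% of 12970 genes were higher and 1.5% lower. At equal depth the ratio in smooth muscle was -0.51 for Lpl and -0.75 for Abcg1, both within 2-fold.

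Under saline, KO smooth muscle had less Fabp4, Plin4, Cd36 and Abca1 than WT. Fabp4 stood at 113 CPM in KO saline against 523 CPM in WT saline, a ratio of -2.20 (-2.24 to -2.17), and Plin4 at 80.2 CPM in KO saline against 187 CPM in WT saline, a ratio of -1.22 (-1.27 to -1.18). For Abca1 the ratio was -1.26 (-1.41 to -1.10). Cd36, at 46 UMIs in KO and 118 in WT, had -1.77 (-2.29 to -1.27). Phagocyte markers differed the same way in this gate, at 7.26 CPM in KO saline against 21.1 CPM in WT saline, and without cells of more than 1 gate the Cd36 ratio was -1.09. In all, 0 of 10 members were higher and 4 lower, where 2.38% of 12668 genes were higher and 2.26% lower. The same 4 members were lower in KO saline fibroblasts, 4 of 9 compared, where 2.99% of 8488 genes were higher and 2.99% lower. Cd36 had only 12 UMIs in KO saline and 45 in WT saline fibroblasts, a ratio of -1.17 (-2.23 to -0.23). The part of smooth muscle RNA in the fibroblast values of Fabp4 and Plin4 was not tested. There Abca1 stood at 36.0 CPM in KO saline against 99.9 CPM in WT saline, and its ratio was -1.47 (-1.82 to -1.14). Apoe, at 0.18 (0.14 to 0.23), and Lpl, at -0.05 (-0.25 to 0.16), were close to level in saline fibroblasts. In saline phagocytes, of which KO had 83, Plin2 was lower in KO with -1.05 (-1.37 to -0.74) and Fabp4 with -1.53 (-2.37 to -0.78). These are 0 of 7 members higher and 2 lower (1 with exclusive gates or at equal depth), where 1.56% of 3009 genes were higher and 2.13% lower. With exclusive gates 53 genes were higher and 43 lower of 2327, and at equal depth 38 and 36 of 1364.

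**Figure D5:**
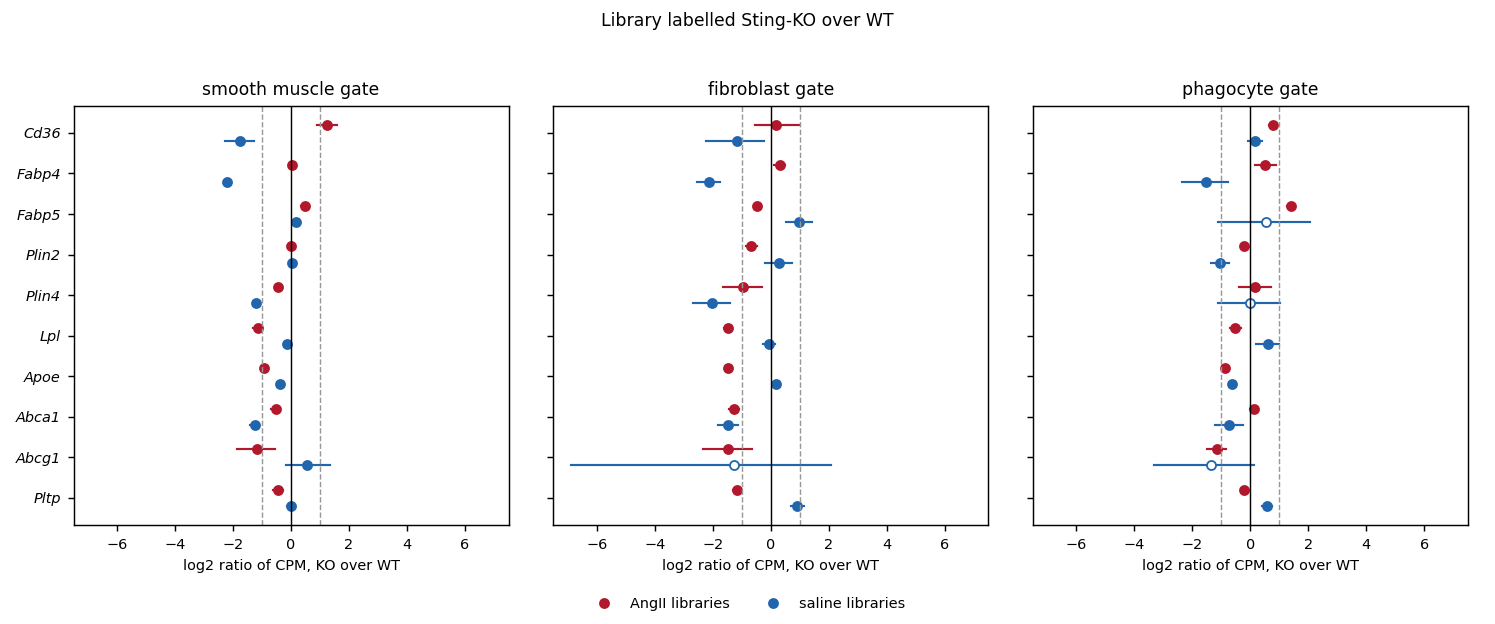
Log2 ratio of CPM, KO over WT, of the 10 genes in smooth muscle, fibroblast and phagocyte gates, AngII libraries above saline libraries for each gene; bars are exact conditional 95% intervals, dashed lines mark 2-fold and open points had too few UMIs to be compared. In fibroblasts Apoe stands at -1.46 under AngII and 0.18 under saline, and in smooth muscle Fabp4 at 0.03 under AngII and -2.20 under saline.

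Endothelial-only cells were too few to compare but gave the highest levels of Fabp4, a known gene of capillary endothelium. Cd36 had 562 CPM in KO AngII and 462 CPM in WT AngII, against 103 CPM in KO saline and 85.4 CPM in WT saline in these cells, and Fabp5 had 276 CPM in KO AngII and 288 CPM in WT AngII, against 80.4 CPM in KO saline and 25.8 CPM in WT saline. Both AngII libraries were thus above both saline libraries for Fabp4, Cd36 and Fabp5. How many of all genes had that order was not counted, so it is given as a description only. Lymphatic endothelial markers took different shares of these cells, at 324 CPM in KO AngII and 0 CPM in WT AngII, against 3.22 CPM in KO saline and 80.6 CPM in WT saline. The 6 fibroblast markers summed to 1486 CPM in KO AngII and 3961 CPM in WT AngII, against 1541 CPM in KO saline and 2821 CPM in WT saline and the 6 smooth muscle markers to 4489 CPM in KO AngII and 3169.7 CPM in WT AngII, against 6379 CPM in KO saline and 4062 CPM in WT saline, beside 2847 CPM in KO AngII and 2287 CPM in WT AngII, against 3294 CPM in KO saline and 2948 CPM in WT saline for the 6 endothelial markers. The part of these other cell types in the levels was not tested. Apoe stood at 832 CPM in KO AngII and 1660.3 CPM in WT AngII, against 2361 CPM in KO saline and 1604 CPM in WT saline, and Abcg1 gave between 1 and 12 UMIs.

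Other genes of the same pathways were read from 7 lists with 122 of 127 genes in the table, which include the members. In smooth muscle the PPAR regulators counted 0 of 11 higher and 3 lower in KO, and 0 of 11 higher and 3 lower in WT with AngII, where 6.69% of all genes were higher and 6.47% lower in KO and 7.24% and 5.6% in WT. Counts such as 1 of 12 or 1 of 20 in this gate are near those shares. The PPAR regulators had a median log2 ratio of -0.38 in KO and -0.49 in WT, beside -0.17 in KO and -0.11 in WT over all genes. Klf15, a glucocorticoid-responsive regulator of fat metabolism, had 14.8 CPM in KO AngII and 16.3 CPM in WT AngII, against 36.4 CPM in KO saline and 50.8 CPM in WT saline (log2 ratio -1.29 in KO and -1.64 in WT). Ppargc1b, a coactivator of mitochondrial genes, and Ppara, the receptor that drives fatty acid oxidation, were lower in both genotypes too. Several calls sat at the edge: the ratio of Ppara in KO, at the threshold itself, and those of Ppargc1b in WT (-1.08), Acacb in WT (-1.04), Slc27a1 in KO (-1.07) and Abca8a in WT (-1.10) came within 2-fold with the TMM shift of 0.15 in KO and 0.11 in WT. Fatty acid oxidation itself counted 1 of 21 higher and 0 lower in KO and 0 of 21 higher and 3 lower in WT.

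The lipid droplet list counted 0 of 15 higher and 4 lower in KO and 0 of 15 higher and 4 lower in WT smooth muscle, with Lipe, the hormone-sensitive lipase, and Cidea, a droplet protein, lower in both. Cidea stood at 11.4 CPM in KO AngII and 18.4 CPM in WT AngII, against 27.5 CPM in KO saline and 42.5 CPM in WT saline. Lipoprotein lipolysis and uptake counted 6 of 16 higher and 2 lower in KO and 3 of 15 higher and 1 lower in WT. The apolipoprotein E receptor gene Lrp8 was higher in both, with 8.84 CPM in KO AngII and 7.32 CPM in WT AngII, against 2.16 CPM in KO saline and 1.64 CPM in WT saline (log2 ratio 2.03 in KO and 2.15 in WT), and so was the scavenger receptor gene Cxcl16. Fatty acid synthesis and desaturation counted 4 of 14 higher and 2 lower in KO and 2 of 14 higher and 2 lower in WT. The elongase gene Elovl6 and the desaturase gene Scd2 were higher and Mlxipl, a regulator of fat synthesis, and Acacb, a carboxylase that restrains oxidation, lower in both genotypes. Scd2 had 111 CPM in KO AngII and 80.5 CPM in WT AngII, against 50.9 CPM in KO saline and 27.5 CPM in WT saline. Fatty acid uptake and binding counted 1 of 12 higher and 1 lower in KO and 1 of 12 higher and 2 lower in WT, with the transporter gene Slc27a1 lower in both. Cholesterol efflux and LXR targets counted 1 of 20 higher and 3 lower in KO and 2 of 20 higher and 2 lower in WT, with Arl4c higher and Cyp27a1, a sterol hydroxylase, and the transporter gene Abca8a lower in both.

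In fibroblasts Abca8a and Nr1h3 of the cholesterol export list were lower in both genotypes beside its members Apoe and Abca1. Of its other members, Pltp was within 2-fold in WT and Abcg1 had too few UMIs. The cholesterol efflux and LXR target list counted 1 of 14 higher and 6 lower in KO and 1 of 16 higher and 7 lower in WT, where 7.02% of all genes were higher and 8.79% lower in KO and 6.62% and 6.87% in WT. Its median was -0.52 in KO and -0.59 in WT, beside -0.12 in KO and -0.11 in WT over all genes. Abca8a stood at 31.1 CPM in KO AngII and 92.5 CPM in WT AngII, against 320.0 CPM in KO saline and 506 CPM in WT saline (log2 ratio -3.36 in KO and -2.45 in WT). Nr1h3, which encodes the receptor LXRα, stood at 8.89 CPM in KO AngII and 9.73 CPM in WT AngII, against 23.4 CPM in KO saline and 21.4 CPM in WT saline (log2 ratio -1.40 in KO and -1.14 in WT), and with the TMM shift of 0.17 its WT ratio came within 2-fold. Arl4c, an LXR target in macrophages, was in contrast higher, at 26.3 CPM in KO AngII and 23.6 CPM in WT AngII, against 3.64 CPM in KO saline and 3.65 CPM in WT saline. The lipid droplet list counted 0 of 9 higher and 2 lower in KO and 0 of 11 higher and 3 lower in WT, with Pnpla2, the main triglyceride lipase, and its inhibitor G0s2 lower in both. Lipoprotein lipolysis and uptake counted 3 of 13 higher and 2 lower in KO and 2 of 13 higher and 3 lower in WT, with the VLDL receptor gene Vldlr lower in both, at 6.45 CPM in KO AngII and 18.8 CPM in WT AngII, against 48.5 CPM in KO saline and 52.5 CPM in WT saline. Fatty acid uptake and binding counted 3 of 8 higher and 0 lower in KO and 3 of 11 higher and 1 lower in WT, with Slc27a3 higher in both. Fatty acid oxidation counted 0 of 20 higher and 1 lower in KO and 0 of 21 higher and 2 lower in WT, with the thiolase gene Acaa2 lower in both. PPAR regulators counted 0 of 6 higher and 0 lower in KO and 0 of 7 higher and 1 lower in WT, and fatty acid synthesis 3 of 10 higher and 0 lower in KO and 0 of 10 higher and 0 lower in WT.

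Phagocytes had fewer list genes with enough UMIs, and over all genes 4.93% were higher and 2.74% lower in KO and 5.41% and 3.76% in WT. Hilpda, a droplet protein that inhibits triglyceride lipase, was higher with AngII in both genotypes, at 191 CPM in KO AngII and 204 CPM in WT AngII, against 45.9 CPM in KO saline and 54.4 CPM in WT saline (log2 ratio 2.06 in KO and 1.91 in WT). Nceh1, a cholesteryl ester hydrolase, was higher as well, at 58.0 CPM in KO AngII and 49.8 CPM in WT AngII, against 20.8 CPM in KO saline and 18.3 CPM in WT saline (log2 ratio 1.48 in KO and 1.44 in WT). Cholesterol efflux and LXR targets counted 3 of 9 higher and 0 lower in KO and 3 of 15 higher and 1 lower in WT, and the lipid droplet list 1 of 4 higher and 0 lower in KO and 2 of 8 higher and 0 lower in WT. Lipoprotein lipolysis and uptake counted 0 of 7 higher and 1 lower in KO and 2 of 10 higher and 0 lower in WT. Fatty acid uptake and binding counted 1 of 3 higher and 1 lower in KO and 1 of 8 higher and 2 lower in WT, and fatty acid oxidation 0 of 8 higher and 0 lower in KO and 0 of 18 higher and 0 lower in WT. PPAR regulators counted 1 of 3 higher and 0 lower in KO and 0 of 6 higher and 0 lower in WT, and fatty acid synthesis 0 of 2 higher and 0 lower in KO and 1 of 6 higher and 0 lower in WT.

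The genes most like each member were taken by Pearson correlation of log2(CPM + 1) over the 12 combinations of 3 gates and 4 libraries, among 7953 genes with a mean of at least 10 CPM. These points share libraries and the large differences between cell types, so the correlations are descriptions. Fabp4 was most like Gatad2b (r = 0.955) and Zfp644, and Plin4 most like Perp (r = 0.964), Fbxo32 and Tns1. The 2 were also each other's closest member, with r = 0.893. For Cd36 the genes were Ednrb (r = 0.987), Rab11fip5 and Snx30, and for Plin2 Dok3 (r = 0.994), Rps6ka1 and Arrb2; this pair was again mutual, with r = 0.949. Apoe was nearest to Daglb (r = 0.990), Vrk2 and Sipa1, and Pltp to Sipa1 (r = 0.991), Blvrb and Daglb, and these members were closest to each other with r = 0.985. Abca1 was nearest to Brms1 (r = 0.980), P2rx4 and Pitpnc1, and Lpl to Arrb1 (r = 0.954), Ifngr1 and Clec2d. Fabp5 was the least like the other members: its likest genes were Aprt (r = 0.936), Cpd and Ezh2, and its closest member was Abca1 (r = 0.480). Abcg1 lay below the minimum level.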

How the data were processed

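Gene expression was measured by 10x Genomics Chromium 3′ v3 droplet capture in 4 libraries, 1 per group, each of 3 pooled mice, per the labels' protocols. The values the authors deposited are raw UMI counts, whole numbers for each gene in each cell. Per the submitters' processing notes, Cell Ranger and the mouse build mm10 were used. The sources used here give no version, annotation or filter on cells. No cell had under 719 genes or over 24.8% mitochondrial UMIs. Library totals were 94698727 UMIs (KO AngII), 90581097 (WT AngII), 76841976 (KO saline) and 60064038 (WT saline).

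A cell was kept from 500 genes up to 20% of mitochondrial UMIs (numpy 2.4.6, scipy 1.17.1, pandas 2.3.3). No doublet caller was run; leaving out cells of more than 1 gate was an alternative. UMIs were summed per gate and library. Since each group is 1 library, the spread between mice is unknown and p-values are not given. A gene was compared between 2 libraries with at least 20 expected UMIs, and called from 2-fold. The 10 members, gates, pathway lists and alternatives were chosen with earlier results of these data known. All members were named; from each pathway list, up to 4 genes per gate that were called the same way with AngII in both genotypes, by the smaller ratio; and the 3 genes most like each member. Some genes that these rules name are not reported here. Alternatives were TMM factors (edgeR 4.0.16, R 4.3.3), median-of-ratios factors, exclusive gates, doubled gate thresholds, no filter on cells, thinning to 3000 UMIs before gating, and at least 50 or no minimum of expected UMIs. Steps were tested on simulated data. Intervals (exact Poisson, conditional or binomial) cover counting error only.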

Additional observations from a re-analysis of the deposited data

Results flagged for a closer look

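In 3 cases the AngII library lay above its saline library in 1 genotype and below it in the other with both 95% counting intervals of the ratio away from 0. The difference between genotypes was not tested. Cd36 in smooth muscle had a log2 ratio of AngII over saline of 2.59 in KO and -0.43 in WT. Plin2 in phagocytes had 0.49 in KO and -0.35 in WT. Pltp in phagocytes had -0.57 in KO and 0.21 in WT. Each rests on 1 library per group, and KO saline held only 83 phagocytes.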

How the results depend on the processing

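No paired analysis was possible because each group is 1 library and the labels give no replicate numbers shared between groups. Under the 8 alternatives no member changed direction among values past 2-fold, and of 107 member ratios per alternative those that crossed 2-fold numbered 3 with TMM scaling, 3 with median-of-ratios scaling, 7 with exclusive gates, 2 with doubled thresholds, 15 at equal depth and 0 with the others. At least 50 or no minimum of expected UMIs changes which genes are compared but no ratio. Those settings are therefore no check of the ratios. The count of members past 2-fold with AngII in KO smooth muscle was 2, and became 1 with TMM, 1 with median-of-ratios, 4 with exclusive gates, 1 with doubled thresholds and 0 at equal depth. Over all genes there, median-of-ratios gave 1047 higher and 542 lower of 12961, and doubled thresholds 773 and 731 of 12697. At equal depth the counts under AngII, KO over WT, became 1 in place of 3 in smooth muscle, 1 in place of 5 in fibroblasts and 1 in place of 2 in phagocytes, and 2 in place of 4 with AngII in KO phagocytes. Over all genes, KO over WT under AngII then gave 159 higher and 97 lower of 10656 in smooth muscle. It gave 141 and 213 of 9036 in fibroblasts and 79 and 150 of 6337 in phagocytes. For KO over WT in saline phagocytes, 2 became 1 with exclusive gates, with doubled thresholds, at equal depth and at 50 expected UMIs. Over all genes there, doubled thresholds gave 35 higher and 53 lower of 2813, and 50 expected UMIs 19 and 21 of 1272. The cause of these changes in count was not tested, but equal depth leaves fewer UMIs and fewer comparable genes by construction. It also changes which cells pass a gate, since markers were counted after thinning. Fibroblasts fell from 1879 to 1164 in KO AngII and from 1696 to 1554 in WT AngII. Smooth muscle cells fell from 5660 to 3651 in KO AngII and from 10350 to 8171 in KO saline. TMM scaling moved the median ratio of all genes by up to 0.31, in KO fibroblasts with AngII, where 919 genes were higher and 363 lower in place of 551 and 690. It gave 1029 and 571 in place of 867 and 839 in KO smooth muscle, 870 and 456 in place of 636 and 660 in WT fibroblasts, 196 and 49 in place of 144 and 80 in KO phagocytes, 439 and 159 in place of 348 and 242 in WT phagocytes, and 307 and 506 in place of 233 and 684 in fibroblasts, KO over WT under AngII. Depth limits Abcg1 everywhere outside phagocytes, and the number of cells limits all members in KO saline phagocytes, of which there were 83.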

Other observations

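The pathway lists also differed between KO and WT within a treatment. The genes given here beyond those of the naming rule were chosen after their values were seen. In fibroblasts under AngII, the lipoprotein lipolysis and uptake list counted 5 of 16 higher and 3 lower in KO, and the cholesterol efflux and LXR target list 0 of 20 higher and 7 lower, where 1.98% of all genes compared were higher and 5.8% lower. At equal depth 1 of the 10 members was lower in this comparison in place of 5, where 141 genes were higher and 213 lower of 9036. Olr1, a receptor of oxidised lipoprotein, stood at 14.3 CPM in KO AngII against 4.53 CPM in WT AngII, a log2 ratio of 1.66 (1.31 to 2.03). The lower genes included Apod, a small lipid carrier, at 8.16 CPM in KO AngII against 44.9 CPM in WT AngII, and Abca8a, at 31.1 CPM in KO AngII against 92.5 CPM in WT AngII, beside the members Apoe, Abca1, Abcg1 and Pltp. KO AngII fibroblasts were deeper per cell than those of WT AngII.

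In saline smooth muscle 2.38% of all genes compared were higher and 2.26% lower in KO. Pdk4, a kinase that turns cells from glucose to fatty acid oxidation, stood at 5.93 CPM in KO saline against 30.2 CPM in WT saline, a ratio of -2.35 (-2.51 to -2.19). Angptl4, an inhibitor of lipoprotein lipase, stood at 3.31 CPM in KO saline against 9.47 CPM in WT saline, a ratio of -1.52 (-1.75 to -1.29). Ucp2, a mitochondrial carrier gene, stood at 1.09 CPM in KO saline against 5.58 CPM in WT saline, a ratio of -2.35 (-2.73 to -1.98). Phagocyte markers in this gate differed the same way, at 7.26 CPM in KO saline against 21.1 CPM in WT saline. The part of phagocytes in the Ucp2 level was not tested. Pdk4 was also lower in saline fibroblasts of KO, at 6.87 CPM in KO saline against 27.7 CPM in WT saline. Of the whole lists in smooth muscle, fatty acid oxidation counted 0 of 21 higher and 2 lower, and the PPAR regulators 0 of 11 higher and 0 lower.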
